A study of Mus musculus with 8 samples.

Results

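The immunity-related GTPases described here are 6 mouse genes, of which Tgtp1, Tgtp2 and Iigp1 encode effector proteins and Irgm1, Irgm2 and Igtp encode regulatory ones. They were found by symbol among the 13703 rows of a table of liver expression, and all 6 were present on a row of their own. The 6 genes were selected on their difference between the same groups of livers, so their levels and differences are given as a description, and no p-value is given for any of them.

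Immunity-related GTPases are proteins of cell-autonomous defence that interferon gamma induces strongly in mouse cells. The effector proteins bind GTP and assemble on the membrane of the vacuole around an intracellular parasite, which then breaks down. The regulatory proteins, also called GMS proteins after a change in their nucleotide-binding loop, sit on the cell's own membranes and hold the effectors in their inactive state there. Autophagy conjugation proteins direct effectors to vacuoles.

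The data were bulk RNA sequencing of whole mouse livers. The first group, Alb-Cre, had 4 libraries from mice with floxed Bicd2 and Cre recombinase under the albumin (Alb) promoter, which is active in hepatocytes. The second, Alb-WT, had 4 libraries from mice with floxed Bicd2 and no such Cre. Bicd2 encodes an adaptor that links the motor dynein to cargo. Both groups were immunized by intraperitoneal injection with 2.5 mg of S-100, a soluble liver protein preparation, in complete Freund's adjuvant each week for 3 weeks, as a model of autoimmune hepatitis (AIH), and the livers were collected 2 weeks later. No liver without immunization was analysed here, so every difference is between genotypes within the model. The labels number the libraries without stating that each was a separate mouse, and p-values measure the spread between these libraries, which may be technical.

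Expression was given as FPKM, fragments scaled by gene length and library total, which allows levels of different genes to be compared per length. The listed genes held 29592578 to 36097021 recovered fragments per library. Bicd2 had 0.705, 0.568, 0.509 and 0.732 FPKM in Alb-Cre replicates 1 to 4, against 2.46, 3.02, 2.80 and 3.11 FPKM in Alb-WT replicates 1 to 4. Hepatocyte markers were abundant in every library, at 38309 to 53239 summed FPKM over 8 genes. Alb-Cre replicate 4 stood apart from its group: the summed FPKM of 12 Kupffer cell markers was 273.7 to 285.3 in the first 3 Alb-Cre libraries and 790.7 in the fourth, against 845.6 to 897.3 in Alb-WT. Results are therefore given with and without this library.

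The stretches of promoter that carry interferon-type motifs are shown because 5 of the 6 genes are in the promoter table and these stretches have much in common. They are RefSeq sequences of build GRCm38.p6, each written 5′ to 3′ on the strand of its gene. Capitals mark matches to GAAANNGAA, the core of an interferon-stimulated response element, and to TTCNNNGAA, the core of a gamma-activated site. Both strands were searched from 250 bases before to 50 bases after the start of the gene, and all GAAANNGAA matches lay on the strand of the gene. TTCNNNGAA reads alike on both strands, so its matches have no orientation. Tgtp1 is at chr11:48992294-48992363 (minus strand), Tgtp2 at chr11:49064253-49064322 (minus), Irgm1 at chr11:48871421-48871484 (minus), Irgm2 at chr11:58214873-58214942 (plus) and Igtp at chr11:58199482-58199551 (plus).
Tgtp1: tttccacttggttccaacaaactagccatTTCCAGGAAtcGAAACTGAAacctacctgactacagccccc
Tgtp2: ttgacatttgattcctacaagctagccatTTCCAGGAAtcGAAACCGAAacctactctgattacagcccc
Irgm2: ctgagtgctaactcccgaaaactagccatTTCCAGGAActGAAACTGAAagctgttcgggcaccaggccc
Igtp: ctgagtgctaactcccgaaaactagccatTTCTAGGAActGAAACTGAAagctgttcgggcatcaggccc
Irgm1: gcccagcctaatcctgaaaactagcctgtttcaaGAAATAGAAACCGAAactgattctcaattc

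In Tgtp1, Tgtp2, Irgm2 and Igtp a TTCNNNGAA match was followed, after 2 bases, by a GAAANNGAA match. The GAAANNGAA match began 77 bases before the start in Tgtp1, 70 in Tgtp2, 64 in Irgm2 and 34 in Igtp (positions -77, -70, -64 and -34). Irgm1 held a pair of overlapping GAAANNGAA matches, beginning at positions -30 and -24, and no TTCNNNGAA match in the window searched. The shown stretches of Irgm2 and Igtp were 97.1% identical and those of Tgtp1 and Tgtp2 87.1% identical, so these windows are not independent of each other.

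Among all 32851 promoter windows of that table, 8.56% held GAAANNGAA, 8.30% held TTCNNNGAA and 1.07% held both. All 5 GTPase windows held the first motif and 4 of 5 held both. Some related genes shared this: of 5 guanylate-binding protein genes with a window, 5 held the first motif and 2 held both. For type I interferon inducible genes it was 14 and 3 of 19, and for other immunity-related GTPase family genes 3 and 2 of 6. For other interferon gamma inducible genes it was 6 and 1 of 14, and for interferon transcription factors 2 and 1 of 8. Inhibitors had 1 and 0 of 5, receptors and kinases 0 and 0 of 5, and autophagy genes 2 and 1 of 23. List counts are by gene, over all its windows, whereas the shares of all promoters are by window. The arrangement with 2 bases between the motifs, noticed in these sequences and then searched for, occurred in 8 windows (0.0244%). Of the 8, 4 belonged to Tgtp1, Tgtp2, Irgm2 and Igtp, and the other 4 to Adar, Gm12185, Olfr382 and LOC115488470. Adar, an RNA-editing enzyme gene, was the only one of those other 4 in the expression table. Its log2 fold change was -0.43 (limma adjusted p = 0.0162). A match is a run of letters and was not tested as a binding site.

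Each of the 6 GTPase genes was lower in all 4 Alb-Cre libraries than in any Alb-WT library. Fold changes below are log2 differences of FPKM + 1, Alb-Cre less Alb-WT, which understate the change of genes with low FPKM. The median over the 6 genes was -2.03, beside -0.13 over the 11077 rows whose mean reached 0.5 FPKM, the filter that all 6 passed. In the fit over all rows, limma at an adjusted p under 0.05 called 23.3% of them lower and 8.48% higher, and all 6 genes fall among the lower ones. In 21.4% of rows every Alb-Cre library was below every Alb-WT library, the 6 genes included. Neither count is a test of the 6 genes and nothing is read from them, since the genes were chosen by this contrast. In a whole liver, fewer cells of a type and less RNA per cell cannot be told apart.

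**Figure D1:**
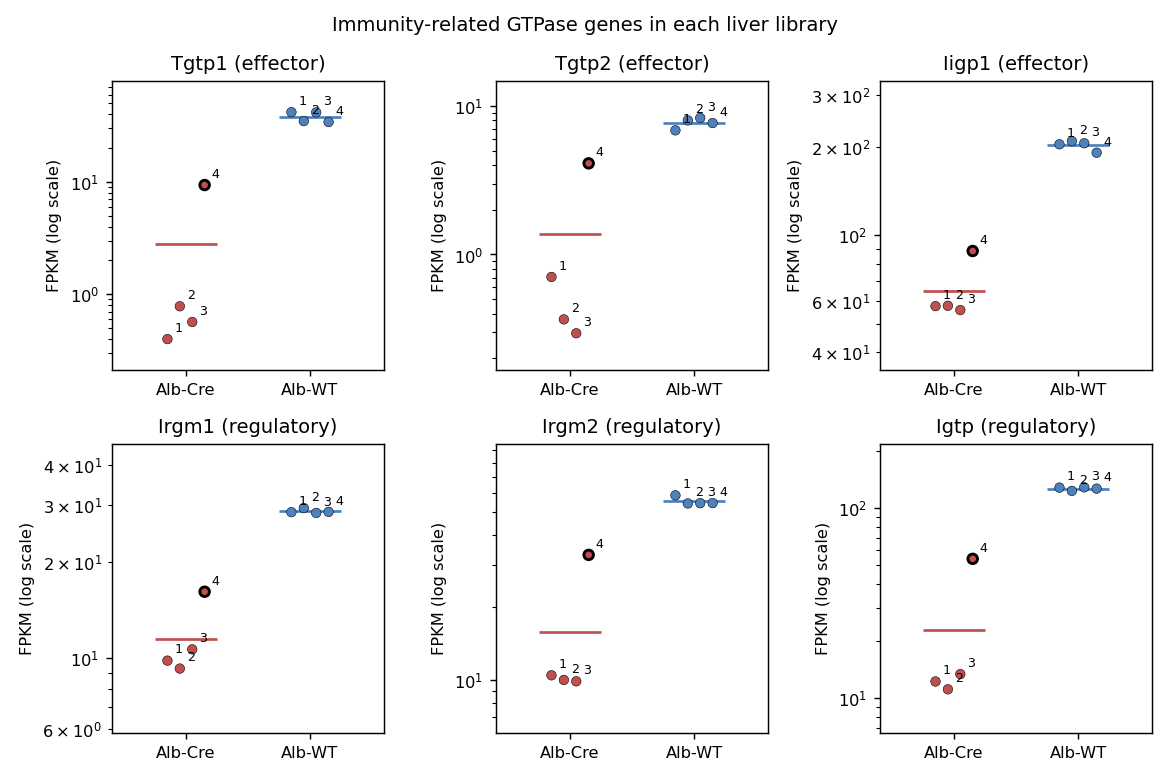
FPKM on a log axis for each of the 6 genes, with Alb-Cre libraries (red, left) and Alb-WT libraries (blue, right) as points numbered by replicate and a line at each group's mean; Alb-Cre replicate 4 has a heavy outline. In every panel replicate 4 lies between Alb-Cre replicates 1 to 3 and the Alb-WT libraries, as for Tgtp1 with 9.39 FPKM between 0.783 and 34.1 FPKM.

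Of the effector genes, Tgtp1, which encodes a T-cell specific GTPase named after T cells, had 0.400, 0.783, 0.567 and 9.39 FPKM in Alb-Cre replicates 1 to 4, against 41.8, 34.8, 41.6 and 34.1 FPKM in Alb-WT replicates 1 to 4. The groups did not overlap, but replicate 4 was 16.1 times as high as the mean of the other Alb-Cre libraries. Its log2 fold change was -3.95 (SE 0.567), and -4.63 (SE 0.0995) without replicate 4. On the FPKM scale Alb-Cre replicates 1 to 3 held 1.53% of the Alb-WT mean, the smallest share among the 6 genes.

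Tgtp2, a near-identical neighbour of Tgtp1, had 0.706, 0.366, 0.295 and 4.10 FPKM in Alb-Cre livers, against 6.84, 7.98, 8.28 and 7.66 FPKM in Alb-WT livers. Replicate 4 alone reached 53.3% of the Alb-WT mean, where Alb-Cre replicates 1 to 3 were at 5.92%. The log2 fold change was -2.13 (SE 0.387), and -2.59 (SE 0.10) without replicate 4.

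Iigp1 encodes Irga6, the effector whose structure and GTP-driven assembly have been studied most closely. It had 57.4, 57.6, 55.7 and 88.5 FPKM in Alb-Cre livers, against 204.4, 209.5, 206.0 and 191.3 FPKM in Alb-WT livers. It was the most abundant of the 6 genes in every library, and Alb-Cre replicates 1 to 3 kept 28.05% of the Alb-WT mean. The log2 fold change was -1.66 (SE 0.141), and -1.82 (SE 0.0450) without replicate 4. Replicate 4 lay closer to its own group here than for any other of the 6 genes, at 34.8% of the log2 distance from Alb-Cre replicates 1 to 3 to Alb-WT.

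Of the regulatory genes, Irgm1, whose loss makes mice susceptible to several intracellular infections, had 9.81, 9.26, 10.6 and 16.1 FPKM in Alb-Cre livers, against 28.6, 29.4, 28.4 and 28.6 FPKM in Alb-WT livers. This was the smallest difference among the 6 genes, with a log2 fold change of -1.29 (SE 0.146), and -1.45 (SE 0.0543) without replicate 4. Its Alb-WT libraries were also the most uniform, with a coefficient of variation of 1.57%.

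Irgm2, which in mouse cells lies mainly on the Golgi, had 10.4, 9.97, 9.85 and 33.1 FPKM in Alb-Cre livers, against 58.5, 54.1, 54.3 and 54.3 FPKM in Alb-WT livers. Replicate 4 was at 59.8% of the Alb-WT mean and Alb-Cre replicates 1 to 3 were at 18.2%. The log2 fold change was -1.94 (SE 0.337), and -2.34 (SE 0.0493) without replicate 4.

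Igtp, which encodes Irgm3, a regulatory GTPase of the endoplasmic reticulum and lipid droplets, had 12.3, 11.2, 13.4 and 54.1 FPKM in Alb-Cre livers, against 128.1, 123.1, 128.5 and 126.5 FPKM in Alb-WT livers. It had the largest difference among the regulatory genes, with a log2 fold change of -2.75 (SE 0.427), and -3.27 (SE 0.0585) without replicate 4. Replicate 4 was 4.41 times as high as the mean of the other Alb-Cre libraries.

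**Figure D2:**
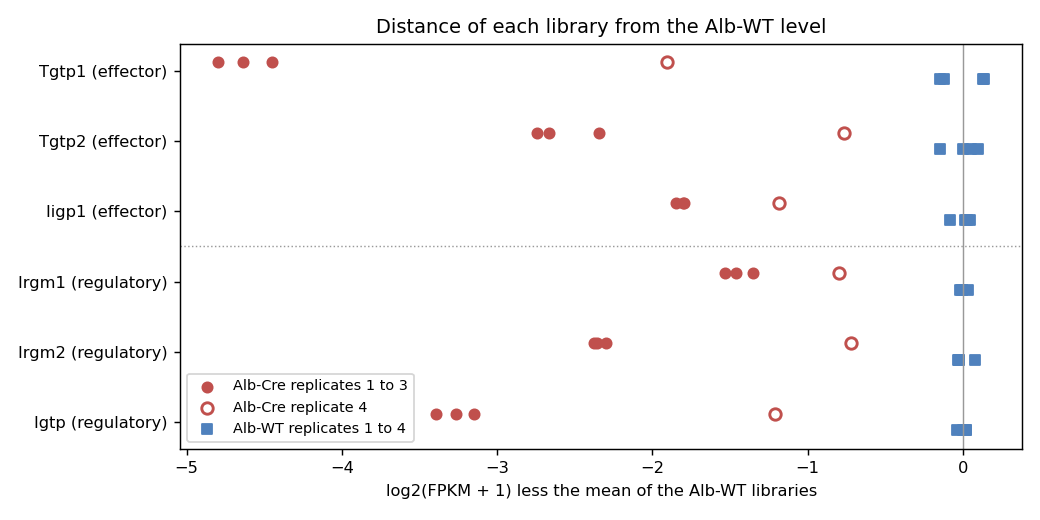
Log2(FPKM + 1) of each library less the mean of the Alb-WT libraries, with a row for each gene, effectors above the dotted line and regulators below it. Alb-Cre replicates 1 to 3 (filled circles) lie furthest left, replicate 4 (open circles) lies between them and the Alb-WT libraries (squares), and Tgtp1 and Irgm1 are at the extremes with log2 fold changes of -3.95 and -1.29.

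The order of the levels differed between the genotypes. In Alb-Cre replicates 1 to 3 Iigp1 was highest, at a mean of 56.9 FPKM, and Igtp followed at 12.3 FPKM. Irgm2 and Irgm1 came next at 10.1 and 9.90 FPKM with overlapping ranges, and Tgtp1 and Tgtp2 were last at 0.583 and 0.456 FPKM, again with overlapping ranges. In Alb-WT livers the order was Iigp1, Igtp, Irgm2, Tgtp1, Irgm1 and Tgtp2, at means of 202.8, 126.6, 55.3, 38.1, 28.8 and 7.69 FPKM, and no neighbouring ranges overlapped. Tgtp1 was thus above Irgm1 in each Alb-WT library and below it in each Alb-Cre library, replicate 4 included. Among all rows that passed the filter, Tgtp1 stood at percentiles 4.28 to 14.4 in Alb-Cre replicates 1 to 3 but 71.1 in replicate 4, against 90.1 to 92.0 in Alb-WT.

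The effector and regulatory classes did not separate as blocks. The mean log2 fold change of the effectors less that of the regulators was -0.585, and the value for each library relative to the Alb-WT mean was -0.640, -0.543, -0.783 and -0.375 in Alb-Cre replicates 1 to 4, against -0.067 to 0.091 in Alb-WT libraries. It was -1.16 with a pseudocount of 0.1 FPKM and -1.24 with voom on recovered fragments. This mean joined unlike members. With Tgtp1 as the only effector the value was -1.95, and with Iigp1 as the only effector it was 0.335, of the opposite sign. These settings were chosen after seeing the data. By library, the value with Iigp1 only was 0.540, 0.631 and 0.446 in Alb-Cre replicates 1 to 3 but -0.276 in replicate 4. In Alb-WT it was -0.073 to 0.060, and its mean over Alb-Cre replicates 1 to 3 was 0.539. The sign also turned when the FPKM of each class were summed, with a log2 ratio of 0.391, a sum in which Iigp1 held most of the effector share. The order by size of log2 fold change ran Tgtp1, Igtp, Tgtp2, Irgm2, Iigp1 and Irgm1. Tgtp2 came before Igtp with a pseudocount of 0.1 FPKM (-3.13 and -2.83) and with voom on recovered fragments (-3.27 and -2.80).

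The 6 genes together had 91.0, 89.1, 90.4 and 205.2 summed FPKM in Alb-Cre replicates 1 to 4, against 468.2, 458.9, 467.1 and 442.6 summed FPKM in Alb-WT replicates 1 to 4. Iigp1 made up 61.6% to 64.6% of this sum in Alb-Cre replicates 1 to 3 but 43.1% in replicate 4, against 43.2% to 45.6% in Alb-WT. Igtp made up 12.5% to 14.8% in Alb-Cre replicates 1 to 3 but 26.4% in replicate 4, against 26.8% to 28.6% in Alb-WT. In these shares replicate 4 was nearer to the Alb-WT libraries than to its own group, although its summed level was less than any of theirs. The effector share was 64.3%, 65.9%, 62.5% and 49.7% in Alb-Cre replicates 1 to 4, against 52.7% to 55.0% in Alb-WT, so Alb-Cre libraries lay on both sides of the Alb-WT range.

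**Figure D3:**
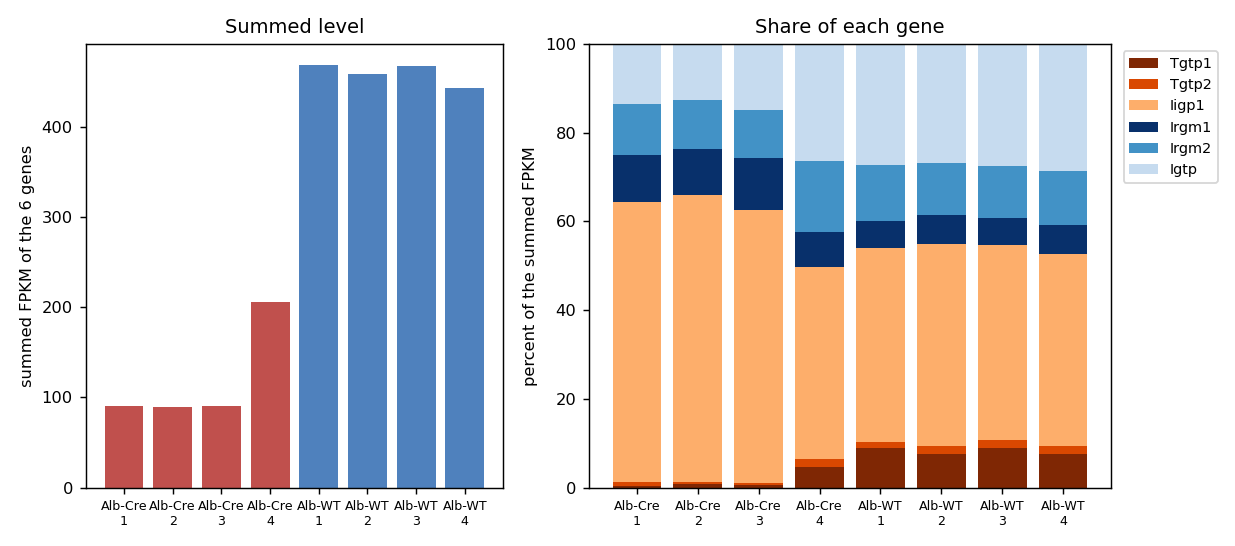
Left, summed FPKM of the 6 genes in each library, Alb-Cre in red and Alb-WT in blue. Right, the percent of that sum from each gene, effectors in orange tones and regulators in blue tones; Iigp1 fills 61.6% to 64.6% of the bar in Alb-Cre replicates 1 to 3 and 43.1% to 45.6% in the other 5 libraries.

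Tgtp1 and Tgtp2 were counted by fragments that may fit both genes. Of the distinct 100-base stretches in their annotated transcripts (GENCODE M21), 70.3% of those of Tgtp1 also occurred in Tgtp2, and 76.8% of those of Tgtp2 occurred in Tgtp1. The division of fragments between them is therefore uncertain. Tgtp1 also overlaps Gm12185 on the same strand and shares 4% of its stretches with it. How fragments that fit several genes were counted is not given in the sources used here. Summed over both genes, they had 1.11, 1.15, 0.862 and 13.5 FPKM in Alb-Cre livers, against 48.6, 42.8, 49.9 and 41.8 FPKM in Alb-WT livers. With both treated as 1 gene the effector mean less the regulatory mean was -0.741. Igtp and Irgm2, which overlap on the same strand, shared 5.16% and 3.01% of their 100-base stretches, and Iigp1 and Irgm1 shared none with any other annotated gene.

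As deposited, the division differed between the libraries. Tgtp1 took 38.2% of the pair's 110 fragments in Alb-Cre replicate 1 (95% exact binomial interval 29.1% to 47.9%). It took 70.0% of 120 in replicate 2 (61.0% to 78.0%), 67.7% of 96 in replicate 3 (57.4% to 76.9%) and 71.4% of 1650 in replicate 4 (69.1% to 73.6%). In Alb-WT replicates 1 to 4 it took 87.0%, 82.6%, 84.6% and 82.9% of 4888 to 5249 fragments. The share was lower in all 4 Alb-Cre libraries than in any Alb-WT library. The intervals cover counting error only, and Alb-Cre replicates 1 to 3 rest on few fragments, with 42, 84 and 65 for Tgtp1 and 68, 36 and 31 for Tgtp2.

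**Figure D4:**
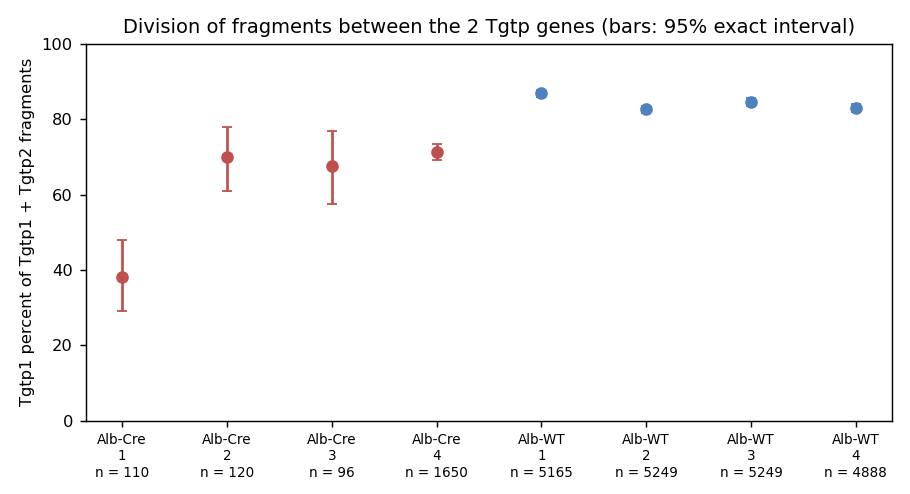
Percent of the fragments of Tgtp1 and Tgtp2 together that were counted for Tgtp1, in each library, with 95% exact binomial intervals and the number of fragments under each name. The Alb-Cre libraries lie at 38.2% to 71.4% and the Alb-WT libraries at 82.6% to 87.0%.

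The signalling genes upstream of the GTPases were examined as lists. Counts of called genes in this and the later lists stand beside 23.3% of all rows called lower and 8.48% higher. Without Alb-Cre replicate 4 these shares were 46.1% and 15.2%. Of the interferon gamma receptor chains and their kinases, 3 of 4 tested genes were called lower and 0 higher by limma. Their median log2 fold change was -0.43, and Ifng itself is not among the rows of the table. Ifngr1, the ligand-binding chain, had 5.68, 6.44, 7.04 and 12.0 FPKM in Alb-Cre livers, against 14.4 to 16.0 FPKM in Alb-WT livers, a log2 fold change of -0.91 (adjusted p = 0.00912). The kinases Jak2 and Jak1 fell, with log2 fold changes of -0.55 and -0.28 (adjusted p = 0.0115 and 0.0182). The call of Jak1 was lost with median-of-ratios scaling (-0.10, adjusted p = 0.215), with the replicate block (adjusted p = 0.0513), and without Alb-Cre replicate 1 or 3 or Alb-WT replicate 1 or 3 (adjusted p = 0.0528 to 0.0557), and the list then had 2 called genes in all of these except the block, where Ifngr2 passed in its place. Ifngr2, the second chain, had -0.32 and did not pass (adjusted p = 0.0502), but passed without Alb-Cre replicate 4 (-0.41, adjusted p = 0.000942).

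Of 12 interferon transcription factors, 9 were called lower and 0 higher, with a median of -0.59. Irf1, an interferon-induced factor that drives a further round of genes, had 5.24, 4.45, 4.92 and 15.3 FPKM in Alb-Cre livers, against 17.1 to 18.5 FPKM in Alb-WT livers, a log2 fold change of -1.32 (adjusted p = 0.0157). Irf8, a myeloid and B cell factor, had -1.26 (adjusted p = 0.0216), Ciita, the activator of MHC class II genes, -1.18 (adjusted p = 0.0110), and Irf2 and Irf7 -0.35 and -0.45 (adjusted p = 0.00480 and 0.00730). Irf8 was not called without any 1 of 6 libraries, all except Alb-Cre replicate 4 and Alb-WT replicate 2 (adjusted p = 0.0544 to 0.0635), and Irf2 was not called with median-of-ratios scaling (-0.18, adjusted p = 0.0635). The number of factors called was 6 or 7 without any library other than Alb-Cre replicate 4. It was 11 without that one, where 46.1% of all rows were called lower. Irf3, Stat3 and Batf2 did not pass.

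Of 7 inhibitors of interferon signalling, 3 were called lower and 0 higher, beside 23.3% and 8.48% of all rows, with a median of -0.40. These were Usp18, Ptpn6 and Pias1, with log2 fold changes of -0.40, -0.78 and -0.26 (adjusted p = 0.00795, 0.0488 and 0.0453). Usp18 alone kept its call in every setting run. Socs1, the feedback inhibitor of Jak kinases, had 0.105, 0.0205, 0.0577 and 1.36 FPKM in Alb-Cre livers, against 0.754 to 1.37 FPKM in Alb-WT livers, and did not pass (adjusted p = 0.0760). Without Alb-Cre replicate 4 all 7 were called lower, where 46.1% of rows were called lower and 15.2% higher, whereas leaving out any other library except Alb-WT replicate 4 left 1.

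Guanylate-binding proteins, a family of larger interferon-induced GTPases that act at the same vacuoles, were largely lower: 10 of 11 were called lower and 0 higher, with a median of -1.65. Gbp2b had 0.346, 0.423, 0.367 and 8.89 FPKM in Alb-Cre livers, against 13.2 to 15.6 FPKM in Alb-WT livers, a log2 fold change of -2.76 (adjusted p = 0.0112). Gbp2 had 2.13, 2.50, 2.55 and 27.1 FPKM, against 29.7 to 33.1 FPKM, a log2 fold change of -2.49 (adjusted p = 0.0200). Gbp10, Gbp5, Gbp6 and Gbp7 fell, with -1.65, -1.67, -1.24 and -1.19 on that scale (adjusted p = 0.00115, 0.0204, 0.00477 and 0.0120). Gbp11 did not pass. Without Alb-Cre replicate 1, Alb-Cre replicate 3 or Alb-WT replicate 3 the number called was 6, and without Alb-Cre replicate 4 it was 11. In that last setting 46.1% of all rows were called lower. Gbp2 was not called without any 1 of 6 libraries (adjusted p = 0.0512 to 0.0595) and Gbp5 without any 1 of 5 (adjusted p = 0.0551 to 0.0593), Alb-Cre replicates 1 to 3 and Alb-WT replicates 1 and 3 for both and Alb-WT replicate 2 for Gbp2 as well.

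Of the other genes of the immunity-related GTPase family and its relatives, 9 of 14 were in the table and 7 were tested. Of these, 6 were called lower and 0 higher, with a median of -0.79. Gm5431, Gvin1 and Gvin2 passed the filter of 0.5 FPKM only through Alb-WT. Their Alb-Cre means were 0.378, 0.381 and 0.290 FPKM, against 1.49, 1.35 and 1.18 FPKM in Alb-WT, so their part in this count and median follows partly from the filter. F830016B08Rik, the neighbour of Iigp1 among protein-coding genes of the RefSeq annotation, had 1.88, 1.49, 1.93 and 3.56 FPKM in Alb-Cre livers, against 8.24 to 10.1 FPKM in Alb-WT livers, a log2 fold change of -1.70 (adjusted p = 0.000494). Gm5431, a neighbour of Irgm1, and Gm4841 fell, with -0.88 and -0.95 (adjusted p = 0.00637 and 0.0345). In Gm4841 the groups overlapped, with 2.14 FPKM in Alb-Cre replicate 4 against a lowest Alb-WT value of 1.78 FPKM. Its call was lost with the replicate block and without any library other than Alb-Cre replicate 4 (adjusted p = 0.0590 with the block and 0.0650 to 0.0926 without a library). The very large GTPase genes Gvin1 and Gvin2 both fell, with -0.79 (adjusted p = 0.00834 and 0.00968).

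Gm4951 had the highest level of these genes, at 41.9, 43.9, 41.0 and 35.2 FPKM in Alb-Cre livers, against 44.1 to 51.8 FPKM in Alb-WT livers. Its log2 fold change was -0.25 (adjusted p = 0.0494). This call was lost without any library other than Alb-Cre replicate 4 (adjusted p = 0.0533 to 0.130), with no filter, with the replicate block, with voom and with median-of-ratios scaling (-0.06, adjusted p = 0.750). Irgq, a distant relative, had -0.11 and did not pass (adjusted p = 0.383), and its sign turned under other scalings of the libraries, to 0.035 with median-of-ratios scaling and 0.0945 with quantile normalization. With a filter at a mean of 1 FPKM, 3 of 4 tested genes of the family were called lower, with a median of -0.60. 9930111J21Rik1 and 9930111J21Rik2, which flank Tgtp1 in that annotation, were below the filter, at 0.0122 to 0.0835 FPKM in Alb-Cre and 0.209 to 0.375 FPKM in Alb-WT for 9930111J21Rik1.

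Of 18 tested interferon gamma inducible genes other than GTPases, 11 were called lower and 0 higher, with a median of -0.71. The inducible serpins Serpina3f and Serpina3g had log2 fold changes of -2.60 and -1.89 (adjusted p = 0.00797 and 0.0156), the peptide transporter gene Tap1 -1.36 (adjusted p = 0.0106) and the chemokine gene Cxcl10 -1.89 (adjusted p = 0.0252). Cxcl9, a chemokine that attracts T cells, had 2.12, 2.63, 2.96 and 72.8 FPKM in Alb-Cre livers, against 40.1 to 47.3 FPKM in Alb-WT livers, so replicate 4 exceeded every Alb-WT library. The gene did not pass (log2 fold change -2.55, adjusted p = 0.0580), but passed without replicate 4 (-3.64, adjusted p = 3.28e-10). In Cxcl9 and Cxcl10 the genotypes overlapped through replicate 4, which did not occur in any of the 6 GTPase genes. Cxcl10 was not called without any library other than replicate 4 (adjusted p = 0.0579 to 0.0713). The number called lower was 17 without replicate 4, where 46.1% of all rows were called lower, and 3 or 4 without any other library.

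Of 26 genes known mainly as type I interferon inducible, 14 were called lower and 1 higher, with a median of -0.42. Ifit3 had 7.25, 7.05, 5.95 and 6.64 FPKM in Alb-Cre livers, against 11.5 to 13.3 FPKM in Alb-WT livers, a log2 fold change of -0.80 (adjusted p = 0.000337). In this antiviral gene, unlike the GTPase genes, replicate 4 lay within its group. Cmpk2 and Rsad2, neighbouring antiviral genes, fell, with -0.65 and -0.60 (adjusted p = 0.00118 and 0.00205), also with replicate 4 within or next to its group. These genes were named for their smallest p, a choice that favours libraries close to their group. Over all 26 genes the mean log2(FPKM + 1) less its Alb-WT mean was -0.528 to -0.499 in Alb-Cre replicates 1 to 3. It was -0.130 in replicate 4 and -0.048 to 0.058 in Alb-WT, so over the list replicate 4 lay between them. Oasl1 rose, with 5.44, 6.05, 5.57 and 6.46 FPKM in Alb-Cre livers, against 3.76 to 4.18 FPKM in Alb-WT livers, a log2 fold change of 0.48 (adjusted p = 0.00262).

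Of 28 autophagy genes, among them the conjugation genes that act in placing effectors on vacuoles, 4 were called lower and 2 higher, with a median of -0.09 beside -0.13 over all rows, of which 23.3% were called lower and 8.48% higher. Atg5, Atg7, Atg3 and Atg16l1 had log2 fold changes of 0.10, -0.06, 0.11 and -0.24 and did not pass (adjusted p = 0.336, 0.516, 0.216 and 0.146). The sign of Atg7 turned to 0.109 with median-of-ratios scaling and 0.0743 with quantile normalization. Gabarap, an Atg8-family protein, was higher at 131.9, 132.9, 135.9 and 140.5 FPKM in Alb-Cre livers, against 92.2 to 112.8 FPKM in Alb-WT livers, a log2 fold change of 0.42 (adjusted p = 0.00621). Gabarapl1 of the same family was lower, at 100.2, 97.0, 106.4 and 64.9 FPKM, against 135.2 to 143.8 FPKM, a log2 fold change of -0.62 (adjusted p = 0.0144). Atg13 was called higher and Atg14 lower, with log2 fold changes of 0.32 and -0.32 (adjusted p = 0.00965 and 0.0323). Atg13 kept its call in every setting run. Atg14 lost its call with both other scalings and the replicate block (adjusted p = 0.0680 to 0.0990) and without any library other than Alb-Cre replicate 4 (0.0609 to 0.0887). Gabarapl1 lost its call with median-of-ratios scaling (-0.43, adjusted p = 0.130).

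**Figure D5:**
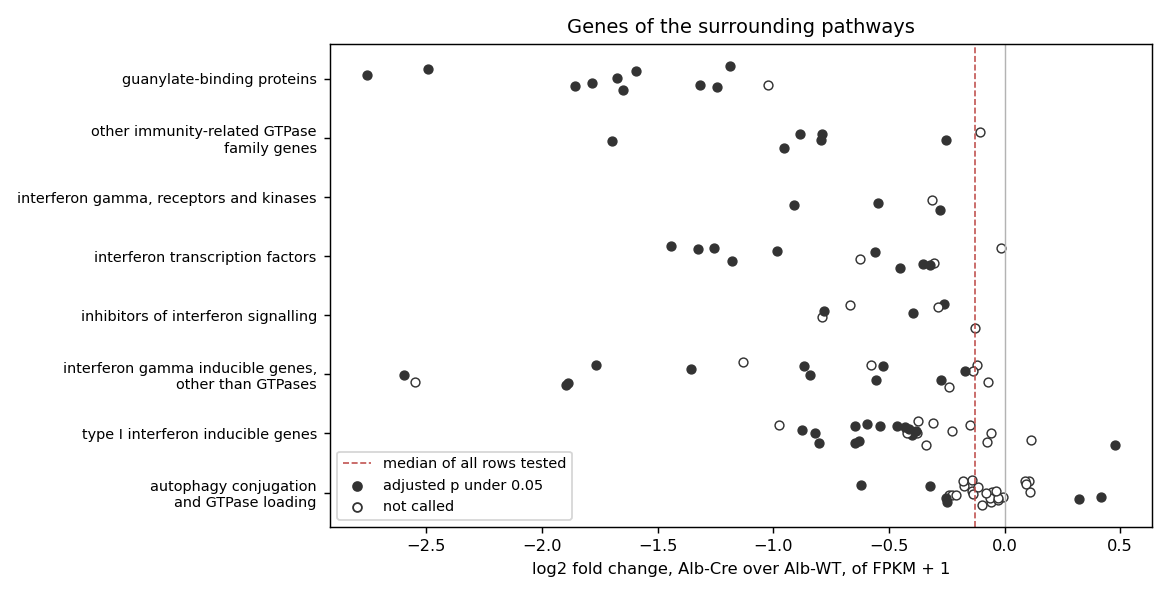
Log2 fold change, Alb-Cre over Alb-WT, of every tested gene of the 8 lists, each gene a point, filled where limma's adjusted p was under 0.05; vertical scatter within a list has no meaning. The dashed line is the median of all rows, -0.13, and the list medians lie between -1.65 for guanylate-binding proteins and -0.09 for autophagy genes.

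Markers of several cell types moved in the same direction as the GTPase genes. The counts of markers called lower, here and below, stand beside 23.3% of all rows. All 12 Kupffer cell markers were called lower, with the sums given above. The summed FPKM of 11 monocyte and macrophage markers was 120.4 to 134.2 in Alb-Cre replicates 1 to 3 but 484.6 in replicate 4, against 500.0 to 541.6 in Alb-WT, with 7 called lower. That of 7 neutrophil markers was 7.46 to 7.79 in Alb-Cre replicates 1 to 3 but 90.4 in replicate 4, against 267.3 to 329.3 in Alb-WT, with all 6 tested called lower. In all of these 3 lists replicate 4 lay between the rest of its group and Alb-WT, as it did for the 6 GTPase genes.

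Markers of other resident cells were lower too. The cholangiocyte list shares Spp1 with the monocyte and macrophage list, so these sums and counts are not independent of each other. The summed FPKM of 6 cholangiocyte markers was 40.5 to 44.1 in Alb-Cre replicates 1 to 3 but 65.8 in replicate 4, against 84.6 to 97.9 in Alb-WT, with all 5 tested called lower. For 10 stellate cell markers it was 77.1 to 82.6 and 81.2, against 121.9 to 123.9 in Alb-WT, with 7 called lower and replicate 4 within its group. For 10 markers of sinusoidal endothelium it was 61.4 to 63.3 and 49.4, against 65.2 to 68.6 in Alb-WT, with 5 called lower and replicate 4 below its group.

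Lymphocyte markers differed again. The summed FPKM of 9 T cell markers was 2.37 to 2.50 in Alb-Cre replicates 1 to 3 but 18.5 in replicate 4, against 11.2 to 12.3 in Alb-WT. For 7 markers of NK and cytotoxic cells the sum was 1.17 to 2.36 and 40.8, against 19.9 to 24.3 in Alb-WT, and for 9 B and plasma cell markers it was 81.5 to 87.2 and 327.7, against 121.2 to 134.8 in Alb-WT. Replicate 4 thus exceeded every Alb-WT library in lymphocyte markers while its GTPase levels stayed below them. Called lower were 0 of 7 tested T cell markers, 2 of 5 NK and cytotoxic markers and 1 of 6 B and plasma cell markers. The hepatocyte marker sum was 50340 to 53239 in Alb-Cre replicates 1 to 3 but 38309 in replicate 4, against 46604 to 49715 in Alb-WT, with 1 of 8 called lower. No marker in the table was at 0, and the markers Ly6g, Mpo, Cd8a, Trac, Ncr1 and Gzmb are not among its rows. The sums rest on the markers the table lists, such as 7 of 13 for neutrophils and 9 of 14 for T cells. The part of these cell types in the GTPase differences was not tested.

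Genes with the pattern most like the mean of the 6 GTPase genes were sought among 9587 rows whose mean reached 1 FPKM. The measure was the root mean square difference of log2(FPKM + 1) values over the 8 libraries, which compresses the changes of genes with low FPKM. The nearest were Igfbp1, at 0.178, Gadd45g, at 0.209, and Retnlg, at 0.244, followed by Cybb, Ly6c2, Clec7a, Serpina3g and Fst, up to 0.340. Igfbp1, a liver-secreted binding protein of insulin-like growth factors, had 57.1, 64.0, 58.9 and 164.4 FPKM in Alb-Cre livers, against 315.2 to 330.4 FPKM in Alb-WT livers. Gadd45g, a stress-induced gene, had 14.9, 16.6, 15.9 and 46.0 FPKM, against 82.5 to 94.2 FPKM. The measure takes in the size of the difference between the genotypes as well as the place of replicate 4, and it carries no test.

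The nearest genes differed from member to member. For Tgtp1 they were Chil3, S100a9 and S100a8, genes of myeloid cells, at 0.224, 0.265 and 0.412, and for Tgtp2 they were Igfbp1, Gadd45g and Cybb. For Iigp1 they were its neighbour F830016B08Rik, at 0.117, then Hsd17b6 and Gbp10. For Irgm1 they were Apol11b, Irs2 and Igfbp5, for Irgm2 Gadd45g, Igfbp1 and Klra2, and for Igtp Serpina3f, Elane and Gbp2b. Likeness on this scale is not likeness of fold change in FPKM where levels are low. Apol11b had 0.0227 to 0.0728 FPKM in Alb-Cre replicates 1 to 3, against 1.94 to 2.19 FPKM in Alb-WT. Irgm1 had 9.26 to 10.6 FPKM against 28.4 to 29.4 FPKM, a smaller fold change. Among the members themselves Irgm2 and Tgtp2 were close on this scale, at 0.197, while Irgm1 and Tgtp1 were furthest apart of the pairs compared, at 1.99. The closeness of Irgm2 and Tgtp2 depended on the pseudocount of 1 FPKM. Their log2 fold changes were -2.02 and -3.13 with a pseudocount of 0.1 FPKM, and -2.01 and -3.27 with voom on recovered fragments.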

How the data were processed

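Total RNA of mouse liver was sequenced in 8 libraries, and the titles of the samples gave group and replicate number. The deposited table gives FPKM, computed by the authors. The aligner HISAT2 2.0.5 is named, per the submitters' processing notes, beside a mouse and a human build without a role. Not given in the sources used here are the counting tool, annotation and strand setting, so no gene coordinates of the files are printed. The sample descriptions name 10x Genomics, which is at odds with the labels' library protocol and a table of 1 column per library.

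The table held 13703 rows and no value of 0 (smallest 0.00167 FPKM). FPKM steps gave whole fragments, within 0.01, for 13646 rows (99.58%), including all 6 GTPase genes; the other rows were left out where fragments were used. Log2(FPKM + 1) was fitted with limma 3.58.1 (R 4.3.3, empirical Bayes with trend, genotype only) over the 11077 rows whose mean reached 0.5 FPKM, with two-sided p-values adjusted by Benjamini-Hochberg over all of them and calls under 0.05. The fit was tested on simulated data that gave both groups the spread of the Alb-WT libraries. No simulated library stood apart as Alb-Cre replicate 4 does, so that test does not cover the real spread. Other steps used Python 3.11.15 with pandas 2.3.3, numpy 2.4.6, matplotlib 3.10.9 and scipy 1.17.1. Promoters came from RefSeq on GRCm38.p6.

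The 6 genes, the lists, the marker genes and the rule for named genes were chosen with earlier results of these data known. Named were the 6 genes and Bicd2, all listed receptors, kinases and family genes in the table, the 4 called genes of smallest p in each other list, 10 genes chosen by name, and the genes of nearest pattern; another gene under the rule is not reported here. Alternatives were pseudocount, filter, scaling, a replicate block, leaving out each library and, added after seeing the data, voom on recovered fragments and single effectors.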

Additional observations from a re-analysis of the deposited data

Results flagged for a closer look

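A sample was listed here when its gap to the nearest of its group exceeded, as a share of the group's range, the Dixon 95% critical value for groups of 4. Chance flags about 1 in 20 such groups. Of 142 groups, from 68 named genes and the composition measures, 48 were listed, and 44 of these were Alb-Cre replicate 4. The flags share a library and are not independent of each other.

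Alb-Cre replicate 4 stood above the rest of its group in 5 of the 6 GTPase genes, with 9.39 FPKM of Tgtp1, 4.10 of Tgtp2, 88.5 of Iigp1, 33.1 of Irgm2 and 54.1 of Igtp, and in the summed level of the 6 genes, 205.2 FPKM. Irgm1 was not listed. The same library stood above its group in guanylate-binding protein genes, with 2.58 FPKM of Gbp10, 2.26 of Gbp6, 8.89 of Gbp2b, 5.72 of Gbp7, 27.1 of Gbp2 and 4.07 of Gbp5. Among family genes it had 2.14 FPKM of Gm4841, 0.926 of Gm5431, 0.353 of 9930111J21Rik2, 0.891 of Gvin1 and 0.837 of Gvin2.

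In signalling genes Alb-Cre replicate 4 had 4.57 FPKM of Jak2, 1.49 of Ciita, 15.5 of Ptpn6, 15.3 of Irf1, 4.70 of Irf8 and 1.36 of Socs1. In interferon gamma inducible genes it had 12.1 FPKM of Serpina3f, 11.4 of Tap1, 11.1 of Serpina3g, 8.51 of Cxcl10 and 72.8 of Cxcl9. It had 4.50 FPKM of Atg14, and it was below its group in Atg3 with 21.5 FPKM.

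Among the genes of nearest pattern Alb-Cre replicate 4 had 164.4 FPKM of Igfbp1, 46.0 of Gadd45g, 5.47 of Retnlg, 16.1 of Cybb, 2.02 of Ly6c2, 17.7 of Clec7a and 1.67 of Fst. It had 7.39 FPKM of Chil3, 49.5 of S100a9, 28.2 of S100a8, 0.653 of Apol11b, 3.57 of Irs2, 7.13 of Klra2 and 2.80 of Elane. These genes were picked for likeness to the GTPase genes, so their flags follow from that choice.

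The other 4 were Alb-WT libraries. Replicate 1 had 58.5 FPKM of Irgm2, above its group, and replicate 3 had 6.26 of Atg7, above its group. Replicate 4 had 18.3 FPKM of Cybb, below its group, and replicate 2 had 203.6 of S100a9, above its group.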

How the results depend on the processing

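All 6 GTPase genes were lower in Alb-Cre livers under every setting run. Main counts over all rows were 939 higher and 2582 lower; they were 1874 and 1516 with median-of-ratios scaling and 1522 and 1478 with quantile normalization, so 44.7% and 49.3% of calls were lower, beside 73.3%. Median-of-ratios scaling moved the median of all rows from -0.13 to 0.02. With the replicate number as a block the counts were 613 and 1631. Deviations of same-numbered libraries from their group means had r of -0.065, -0.054, -0.097 and 0.013 for numbers 1 to 4. These values cannot decide whether the numbers pair samples, since deviations within a group depend on each other. The labels only number the libraries. Leaving out each library gave 546 to 1680 higher and 1192 to 5088 lower, with both upper ends without Alb-Cre replicate 4.

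Lists called lower: the other family genes numbered 3 with a mean of at least 1 FPKM, where fewer were tested. Inhibitors numbered 1 with no filter, with median-of-ratios scaling and with the replicate block. Autophagy genes numbered 0 with median-of-ratios scaling, 2 with quantile normalization and 1 with the replicate block. Type I genes called higher numbered 2 with both scalings. Leaving out each library gave 6 to 11 guanylate-binding proteins, 1 to 7 inhibitors, 3 to 17 interferon gamma inducible genes and 1 to 10 autophagy genes, with each upper end without Alb-Cre replicate 4. In that setting 46.1% of all rows were called lower, a larger share than 10 of the 28 autophagy genes. Where not stated, the cause was not tested.

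The effector mean less the regulatory mean was -0.585. It was -1.16 with a pseudocount of 0.1 FPKM, -0.741 with Tgtp1 and Tgtp2 summed, 0.391 as a ratio of summed FPKM and, in settings chosen after seeing the data, -1.24 with voom on recovered fragments, -1.95 with Tgtp1 only and 0.335 with Iigp1 only. Leaving out each library gave -0.655 to -0.519. Signs also turned for Irgq (0.0351 and 0.0945) and Atg7 (0.109 and 0.0743) with median-of-ratios scaling and quantile normalization. edgeR on recovered fragments was not run, and voom took its place. Few fragments limit the Tgtp genes in Alb-Cre replicates 1 to 3.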
